A study of Mus musculus with 16 samples.

Results

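*Vegfa*, *Adm*, *Bnip3*, *Egln3*, *Pfkfb3*, *Ldha*, *Pgk1*, *Angptl4*, *Ankrd37* and *Hk2* are genes known to be transcribed more when oxygen is low, and several of them encode enzymes of glycolysis. They were picked by gene symbol, without a threshold on their values but with earlier results of these data known. All 10 of 10 were found among the 18167 genes measured in the spinal cords of 16 mice. The hypoxia-inducible factors (HIF) are pairs of an alpha and a beta subunit. When oxygen is present, prolyl hydroxylases mark the alpha subunit and the VHL protein then directs its breakdown. When oxygen is scarce the pair binds DNA and raises genes for vessel growth, glucose uptake, glycolysis and the removal of mitochondria, and in nervous tissue such genes are expressed by neurons, glia and vessel cells.

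The libraries came from the spinal cords of male mice that carry human profilin1 under the mouse prion protein promoter, a transgene of broad expression, as models of amyotrophic lateral sclerosis and its control. Mutant mice, of the line Tg(Prnp-PFN1*G118V)838Kiaei/J on C57BL/6N, express the protein with the G118V change, and the 3 mutant young (MY) mice were 50 days old while the 5 mutant old (MO) mice, 175 to 245 days old, were at end stage. Wild-type mice, of the line Tg(Prnp-PFN1)850Kiaei/J on C57BL/6N, express the unchanged human protein, and comprised 3 wild-type young (WY) mice of 50 days and 5 wild-type old (WO) mice of 190 to 294 days. All young mice belonged to batch 1 of the labels, and WO and MO each had 3 mice in batch 1 and 2 in batch 2. Age went with batch in WO, at 190 days for WO1 to WO3 and 294 for WO4 and WO5, while MO1 to MO5 were 198, 190, 245, 224 and 175 days old, so WO vs. MO differs between the batches in age as well. Every group carried a human transgene, so mice without one were not compared.

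Levels are given as log2(1 + FPKM), where FPKM counts fragments relative to transcript length and to library size, adjusted for batch by the authors. Fragment numbers per gene are unknown, and errors therefore come from the differences among mice. Because 1 was added before the logarithm, this scale understates fold changes of weakly expressed genes such as *Hk2*, *Angptl4* and *Adm*. A gene was called at a Benjamini-Hochberg FDR at or below 0.05 over all genes (limma) with a fold change of at least 1.5, and each difference is the second group minus the first. MY vs. MO and WO vs. MO share the 5 MO mice, so their values are set side by side and are not independent. Values within a batch were computed after the adjustment, whose covariates are not given, and whether they carry it was not tested.

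The library MO5 did not match its label in the sex-specific genes. *Xist*, expressed from the inactive X chromosome, was at 3.21 in MO5 and at most 0.37 in the others, and the Y-linked *Ddx3y*, *Eif2s3y*, *Kdm5d* and *Uty* were at 1.95, 1.82, 1.07 and 1.05, each the lowest of the 16 mice. The 10 genes and the 22 genes named from other lists were therefore also fitted without MO5, while overlap counts and marker lists include it. No call of these 32 genes changed without it in MY vs. MO, WO vs. MO or the difference of age effects. The FDR moved above 0.05 for *Epas1* in WO vs. MO and for *Vegfa* in the age effects, and the sign turned for *Ldhb* in MY vs. MO and for *Slc2a1* in the age effects. Without MO5 2, 3 and 1 of the 10 genes were called in MY vs. MO, WO vs. MO and the difference of age effects, as with it. In MO1 the hemoglobin gene *Hba-a1*, the most abundant of the 4 blood markers found, was at 3.60, against 5.42 to 5.99 in the other MO mice, and in WO4 the myelin gene *Mbp* was at 5.36, against 12.4 to 12.6 in the WO mice of batch 1 and 14.2 in WO5. In MO mice *Mbp* was at 12.2 in batch 1 and 14.1 in batch 2, and the part of the batch adjustment in these levels was not tested.

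The spinal cord label was borne by its markers. All 9 of 9 were found, with *Mbp* the most abundant on average, and their mean level lay between 5.34 (WO4) and 6.35 in every mouse. None was at or below 0. The lowest was *Mnx1*, a motor neuron factor, at 0.78 to 1.62. All 6 skeletal muscle markers were found. The most abundant, *Mylpf*, was at 0.87 to 2.08, *Acta1* at 0.35 to 0.88 and *Tnnt3* at 0.02 to 0.71, while *Myh4* was under 0.1 in every mouse.

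Among the 10 genes, 2 were called in MY vs. MO, where 4.9% of all genes were called, and 3 in WO vs. MO, where 4.6% were. *Hk2* and *Angptl4* were higher in MO in both comparisons, and *Vegfa* was lower in MO than in WO. None was called in WY vs. WO (0.253% of all genes, limma) or WY vs. MY (0.0055%), where 1 of the 10 in each had an unadjusted p under 0.05, *Adm* and *Vegfa* respectively, against 13.5% and 7.16% of all genes. The difference between the age effects of both genotypes, (MO - MY) - (WO - WY), was called for *Hk2* alone, against 5.61% of all genes. With the FDR alone, 3 of 10 passed in MY vs. MO (25.6% of all genes), 4 of 10 in WO vs. MO (27.9%) and 2 of 10 for the age effects (17.7%). The median difference of the 10 genes was 0.10 in MY vs. MO and -0.0029 in WO vs. MO, beside 0.0047 and 0.00035 over all genes. The 10 genes therefore did not move one way, and their account follows gene by gene.

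**Figure D1:**
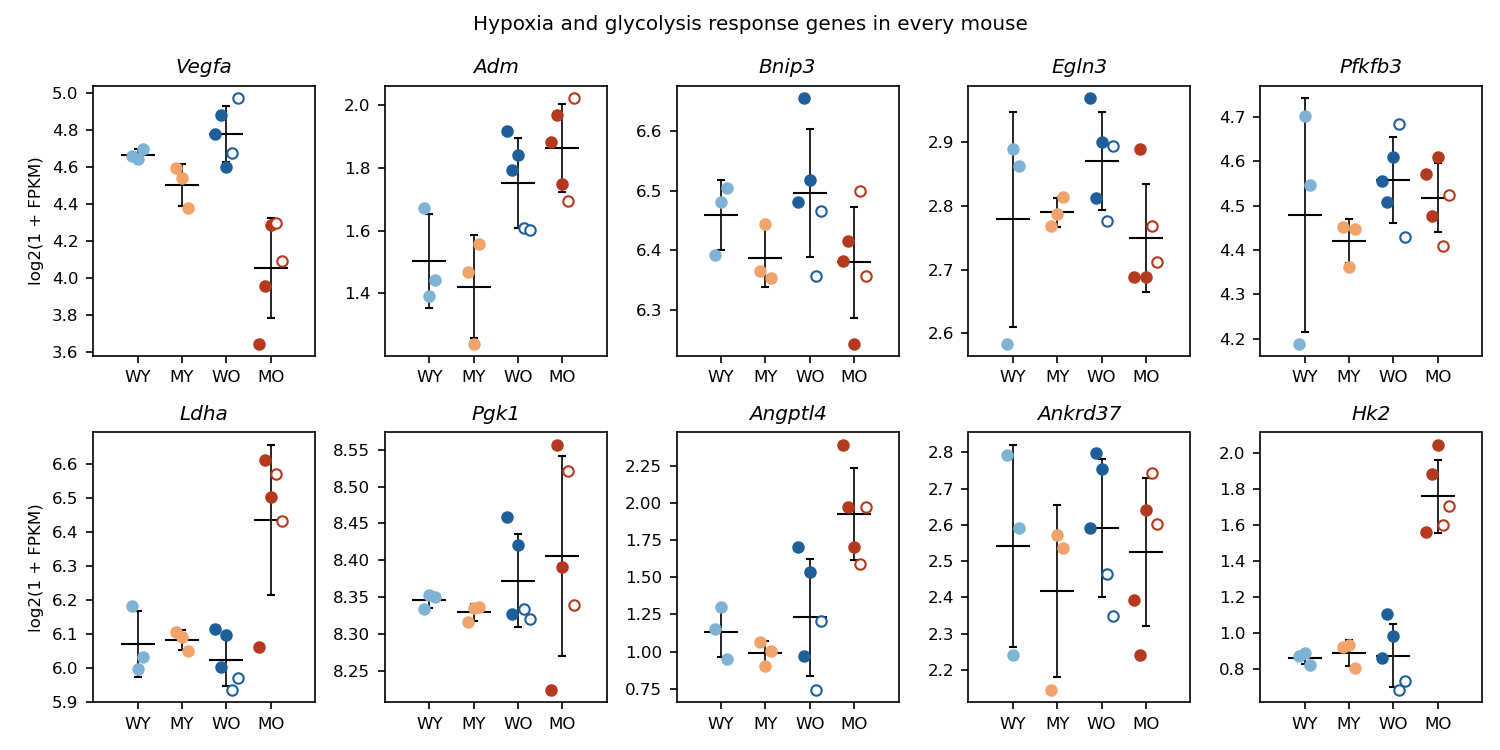
Level of each of the 10 genes, as log2(1 + FPKM), in every mouse of the 4 groups, with filled points for batch 1, open points for batch 2 and bars for the group mean and SD. In the panel of *Hk2* the 5 MO mice lie between 1.56 and 2.05, above all others, and in that of *Vegfa* they lie between 3.65 and 4.30, below all others.

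*Vegfa* (chromosome 17, 46016993 to 46032369, minus strand, GRCm38) encodes vascular endothelial growth factor A, the main signal for vessel growth. Its level was 4.66, 4.64 and 4.70 in WY mice, 4.59, 4.54 and 4.38 in MY mice, 4.77, 4.88, 4.60, 4.67 and 4.97 in WO mice, and 3.65, 3.96, 4.29, 4.30 and 4.09 in MO mice. Every MO mouse was below every mouse of the other groups, with MO1 the lowest, and every MY mouse was below every WY mouse. The mean ± SD was 4.66 ± 0.03 for the 3 WY mice and 4.50 ± 0.11 for the 3 MY mice, against 4.78 ± 0.15 for the 5 WO mice and 4.06 ± 0.27 for the 5 MO mice. From WO to MO *Vegfa* fell by 0.72 (SE 0.12, 95% confidence interval -0.997 to -0.449, FDR = 0.0016), a level 1.65-fold lower. The difference was -0.79 within batch 1 and -0.63 within batch 2, and without MO5 it was -0.73 (FDR = 0.0042). From MY to MO the difference was -0.45 (interval -0.78 to -0.12, FDR = 0.0535), which missed the threshold, and it was -0.46 without MO5 (FDR = 0.0835), while it passed the FDR without MO1, MO3 or MO4, at -0.34, -0.50 and -0.51. It was -0.54 in batch 1 only and with the replicate number as a block, where it missed the FDR, and with batch as a term, where it passed (FDR = 0.04). Those fits give the same difference, because no MY mouse is of batch 2 or shares a number with MO4 or MO5. At -0.45 the difference from MY to MO passed the FDR with a mean of at least 1 (0.0397), all 4 groups in 1 fit (0.0175) and an intensity trend (0.0486). The age effect of *Vegfa* in mutant minus wild-type mice was -0.56 (FDR = 0.041), under the fold change threshold, and its FDR was 0.0528 without MO5 and up to 0.106 with another mouse left out (MY1). The FDR was also above 0.05 in batch 1 only (0.0592), with 0.1 added to FPKM (0.052) and with the block (0.0707). Without MO3, MO4, MY3, WO3 or WO4 the difference of age effects was -0.62, -0.62, -0.62, -0.61 and -0.59 and passed both thresholds. From WY to MY the difference was -0.16 (interval -0.32 to -0.01, FDR = 0.689).

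*Adm* (chromosome 7, 110627661 to 110629820) encodes adrenomedullin, a peptide that widens vessels. Its level was 1.67, 1.39 and 1.44 in WY mice, 1.47, 1.24 and 1.56 in MY mice, 1.92, 1.79, 1.84, 1.61 and 1.60 in WO mice, and 1.88, 1.97, 1.75, 1.69 and 2.02 in MO mice. All MO mice exceeded all MY mice, while MO and WO mice overlapped. *Adm* was higher in MO than in MY by 0.44 (SE 0.10, interval 0.22 to 0.66, FDR = 0.0117), under 1.5-fold on this scale, and the ratio of FPKM at the group means was 1.57. With 0.1 in place of 1 as the number added to FPKM the difference was 0.62 and passed both thresholds. From WO to MO it was 0.11 (interval -0.07 to 0.29), at 0.02 in batch 1 and 0.25 in batch 2, and from WY to WO 0.25 (interval 0.03 to 0.47, FDR = 0.288). The age effects of both genotypes differed by 0.19 (interval -0.11 to 0.49), so the difference between MY and MO was not shown to be larger than that between WY and WO. Without MO5 the difference from MY to MO was 0.40 (FDR = 0.022), and with the block 0.44 (FDR = 0.0539).

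Groups did not overlap in 4 of the 10 genes between MY and MO, where this held for 31.6% of all genes (*Vegfa*, *Adm*, *Angptl4* and *Hk2*). Between WO and MO this was so for 2 genes, *Vegfa* and *Hk2*, against 19.9% of all genes. It held for 0 genes between WY and WO (9.67%) and for *Vegfa* alone between WY and MY (13.7%).

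The receptors of both peptides were listed as 8 genes, and 8 were found. None was called in MY vs. MO or WO vs. MO (limma), with an unadjusted p under 0.05 for 5 and 4 of them, against 36.7% and 38.5% of all genes. At the FDR alone 1 rose and 1 fell in MY vs. MO, and 1 rose and 2 fell in WO vs. MO, where 25.6% and 27.9% of all genes passed. *Kdr*, the main signaling receptor of VEGF-A, fell by 0.56 from WO to MO (interval -0.81 to -0.31, FDR = 0.0037) and by 0.40 from MY to MO (FDR = 0.0201), and its age effect differed between genotypes by -0.56 (FDR = 0.0309). Without MO5 these values were -0.55, -0.40 and -0.55 (FDR = 0.0099, 0.0402 and 0.0455). The difference from MY to MO missed the FDR without MY1 (-0.35) or MY2 (-0.40), and that from WO to MO passed both thresholds without MO4, WO1 or WO4 (-0.63, -0.61 and -0.62), in batch 1 only (-0.64) and with quantile normalization (-0.66). With 0.1 in place of 1 added to FPKM both differences passed both thresholds, at -0.64 from MY and -0.86 from WO. The difference of age effects missed the FDR without MO3, MY1, MY2, WO2, WO3, WY1 or WY3 (up to 0.0892) and passed both thresholds in 8 of 24 other fits. All 5 MO mice, at 0.94, 1.19, 1.02, 1.39 and 1.10, were below the lowest mouse of WO (1.43) and of MY (1.42). *Flt1*, a decoy-like receptor of VEGF-A, fell by 0.47 from WO to MO (FDR = 0.0144, and 0.0328 without MO5), by 0.57 within batch 1 and 0.32 within batch 2, and from MY to MO its difference was 0.13 (interval -0.06 to 0.31). *Calcrl*, the receptor of adrenomedullin, differed by 0.24 in both comparisons (FDR = 0.11 and 0.0551), and passed the FDR in MY vs. MO with the block (0.044) and in WO vs. MO with a mean of at least 1 (0.047), all groups in 1 fit (0.0225) or without MO3, MO4 or WO3. *Nrp1*, a co-receptor of VEGF-A that was named after its values were seen, was the gene that rose, by 0.34 in MY vs. MO (FDR = 0.0065) and 0.40 in WO vs. MO (FDR = 0.000988, but 0.0506 in batch 1 only). Without MO5 these were 0.32 (FDR = 0.0143) and 0.38 (FDR = 0.0032).

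*Kdr* and *Flt1* also belong to the 9 endothelial markers, all of which were found. *Cldn5*, a tight junction gene, was the most abundant of the 9 on average, although *Slco1a4* was above it in the MY mice, WO4, MO1 and MO5. The summed level of the 9 markers was 25.8, 24.8 and 24.7 in WY mice, 23.7, 23.4 and 23.1 in MY mice, 26.6, 26.4, 27.0, 23.4 and 26.7 in WO mice, and 20.2, 22.0, 22.8, 23.0 and 22.4 in MO mice. The MO mice were the lowest group and MO1 the lowest mouse, and no marker was at or below 0. At the FDR alone 8 of the 9 fell from WO to MO, with a median difference of -0.47, and 1 of 9 from MY to MO, with a median of -0.08. Of all 18167 genes 2345 and 2269 fell in these comparisons. All 9 were also lower in MY than in WY, with a median difference of -0.18. None passed the FDR there, and the unadjusted p (limma) was under 0.05 for 6 of the 9, against 7.16% of all genes. The 6 pericyte and mural markers had a median difference of -0.09 in WO vs. MO, with values from -0.58 to 0.29. At the FDR alone 1 of them rose and 2 fell. In bulk tissue, fewer cells of a type and less RNA per cell cannot be told apart, and the part of vessel cells in the lower *Vegfa* and *Kdr* was not tested.

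*Hk2* (chromosome 6, 82725025 to 82774454) encodes hexokinase 2, which traps glucose in the cell as glucose phosphate in the opening step of glycolysis. Its level was 0.87, 0.89 and 0.82 in WY mice, 0.92, 0.93 and 0.81 in MY mice, 0.86, 1.10, 0.98, 0.68 and 0.73 in WO mice, and 1.56, 1.88, 2.05, 1.60 and 1.71 in MO mice. The lowest MO mouse lay above the highest other mouse, WO2, and the 3 other groups overlapped. *Hk2* rose by 0.87 from MY to MO (SE 0.11, interval 0.62 to 1.12, FDR = 0.001) and by 0.89 from WO to MO (SE 0.11, interval 0.65 to 1.13, FDR = 0.000196). At the group means FPKM went from 0.85 in MY and 0.83 in WO to 2.39 in MO, ratios of 2.81 and 2.87, and with 0.1 in place of 1 added to FPKM the differences were 1.38 and 1.43. The difference from WO to MO was 0.85 in batch 1 and 0.95 in batch 2. The age effect was larger in mutant mice by 0.86 (SE 0.15, FDR = 0.0015), while WY and WO differed by 0.01 (interval -0.20 to 0.23). Without MO5 the 3 values were 0.89, 0.90 and 0.87, with FDR = 0.0028, 0.000663 and 0.0025.

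*Ldha* (chromosome 7, 46841475 to 46855627) encodes the A subunit of lactate dehydrogenase, which turns pyruvate into lactate. Its level was 6.18, 6.00 and 6.03 in WY mice, 6.11, 6.09 and 6.05 in MY mice, 6.12, 6.00, 6.10, 5.94 and 5.97 in WO mice, and 6.06, 6.61, 6.51, 6.57 and 6.43 in MO mice. In MO mice 2 to 5 *Ldha* was above every other mouse, and MO1 lay within the range of the other groups. *Ldha* was higher in MO than in WO by 0.41 (SE 0.10, interval 0.20 to 0.62, FDR = 0.0086), a 1.33-fold difference and so not called. It was 0.32 in batch 1, which holds MO1 (FDR = 0.193 in batch 1 only), and 0.55 in batch 2, and without MO5 it was 0.41 (FDR = 0.019). From MY to MO the difference was 0.35 (interval 0.09 to 0.62, FDR = 0.0551), or 0.45 without MO1 (FDR = 0.0011). It passed the FDR with a mean of at least 1 (0.0424), all groups in 1 fit (0.0158), quantile normalization (0.0336) and an intensity trend (0.0499). The age effects differed by 0.40 (interval 0.11 to 0.69, FDR = 0.0586), or 0.49 without MO1 (FDR = 0.000987) and 0.36 with quantile normalization (FDR = 0.0381). *Ldha* and *Pgk1* have processed pseudogenes with near-identical sequence, and how fragments that match both were counted is not given in the sources used here.

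*Pfkfb3*, whose product makes the activator of phosphofructokinase, lay between 4.19 and 4.70 in WY, 4.36 and 4.45 in MY, 4.43 and 4.68 in WO, and 4.41 and 4.61 in MO. Its difference was 0.10 from MY to MO (interval -0.02 to 0.22) and -0.04 from WO to MO (interval -0.16 to 0.08). *Pgk1*, phosphoglycerate kinase 1, had the highest level per length of the 10 genes, with an FPKM at the group mean of 338 in MO and 330 in WO. Its level ran from 8.22 (MO1) to 8.56 (MO2) in MO and from 8.32 to 8.46 in WO, and the difference was 0.03 (interval -0.11 to 0.18), or 0.08 from MY to MO (interval -0.09 to 0.25). For these 2 genes the intervals reach at most 0.22 and 0.25, so a 1.5-fold change lies outside them. The direction for *Pgk1* turned under quantile normalization in both comparisons, to -0.02 and -0.01.

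The 15 other glycolytic enzymes were all found. In MY vs. MO 1 was called, in WO vs. MO 1, where 4.9% and 4.6% of all genes were called. The median differences of the list were 0.02 and -0.04, beside 0.0047 and 0.00035 over all genes. The gene called was *Hk3*, a hexokinase of white blood cells, at 0.62, 0.63 and 0.77 in MY mice, 0.76, 0.81, 0.74, 0.58 and 0.46 in WO mice, and 1.33, 1.53, 1.81, 1.30 and 1.59 in MO mice. All MO mice exceeded all others, and *Hk3* rose by 0.83 (FDR = 0.0014) from MY and by 0.84 (FDR = 0.000203) from WO, values close to those of *Hk2*, or by 1.48 and 1.51 with 0.1 added to FPKM. *Hk1*, the hexokinase of brain, differed by 0.01 (interval -0.12 to 0.14) and -0.06 (interval -0.17 to 0.05). Per length, *Hk1* was the most abundant of these 3 hexokinases in MO, with an FPKM at the group mean of 66.9, against 2.39 for *Hk2* and 1.85 for *Hk3*. *Ldhb*, the subunit of lactate dehydrogenase that favors pyruvate, differed by -0.01 (interval -0.13 to 0.11) and -0.13 (interval -0.24 to -0.01, FDR = 0.0952). Its FPKM at the MO mean was 624 and that of *Ldha* 85.6.

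Of 9 carriers of glucose, lactate and pyruvate, 2 were called in MY vs. MO and in WO vs. MO, both higher, where 4.9% and 4.6% of all genes were called. The median differences of the 9 were 0.15 and 0.08. *Slc16a3*, a carrier that exports lactate, rose by 0.79 (FDR = 0.0048) and 0.82 (FDR = 0.0012). Its level was 0.81, 0.97 and 0.98 in MY mice, 0.89, 1.11, 1.07, 0.60 and 0.80 in WO mice, and 1.28, 1.71, 1.99, 1.73 and 1.85 in MO mice, without overlap. The call in WO vs. MO ended in batch 1 only (0.64, FDR = 0.0577), and within batch 2 the difference was 1.09. With 0.1 added to FPKM the values for MY vs. MO and WO vs. MO were 1.26 and 1.32. *Slc2a4*, the insulin-responsive glucose carrier, rose by 0.77 (FDR = 0.01) and 1.07 (FDR = 0.000485), and by 1.33 within batch 1 and 0.68 within batch 2 in WO vs. MO. With the treat test of limma, against a 1.2-fold change, the calls in MY vs. MO ended for *Slc16a3* (FDR = 0.0574) and *Slc2a4* (FDR = 0.125). *Slc2a1*, the glucose carrier of the blood-brain barrier and a HIF target, was 0.24 higher in MO than in MY (FDR = 0.0201, and 0.0342 without MO5, but 0.0773 without MY2, 0.0822 without MY3, 0.14 with all groups in 1 fit and 0.066 with quantile normalization) and differed by -0.09 from WO to MO (interval -0.30 to 0.12).

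*Egln3*, a prolyl hydroxylase that acts on the HIF alpha subunit and is itself raised by HIF, lay between 2.58 and 2.89 in WY, 2.77 and 2.81 in MY, 2.78 and 2.97 in WO, and 2.69 and 2.89 in MO. The difference was -0.04 from MY to MO (interval -0.16 to 0.08) and -0.12 from WO to MO (interval -0.24 to -0.01, FDR = 0.109). Without MO2 the difference from WO to MO passed the FDR, at -0.16 (FDR = 0.036). *Bnip3*, which marks mitochondria for removal, ran from 6.24 to 6.50 in MO and from 6.36 to 6.66 in WO. Its differences were -0.01 (interval -0.14 to 0.13) and -0.12 (interval -0.25 to 0.02), and -0.21 within batch 1 but 0.02 within batch 2 of WO vs. MO. *Ankrd37*, an ankyrin repeat gene used as a hypoxia marker, ran from 2.24 to 2.74 in MO and from 2.35 to 2.80 in WO. It differed by 0.11 (interval -0.20 to 0.42) and -0.07 (interval -0.31 to 0.18), and its sign was opposite in the batches, at -0.29 and 0.27. For each of these 3 genes every group overlapped every other, and no interval reached a 1.5-fold change.

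*Angptl4* (chromosome 17, 33773750 to 33781830) encodes a secreted inhibitor of lipoprotein lipase, and is raised by low oxygen and by the fatty acid receptors of the PPAR family. Its level was 1.15, 1.30 and 0.95 in WY mice, 1.07, 0.90 and 1.00 in MY mice, 1.70, 0.97, 1.53, 0.74 and 1.21 in WO mice, and 2.39, 1.97, 1.71, 1.59 and 1.97 in MO mice. All MO mice exceeded all young mice, but WO1 was above MO4, so the old groups overlapped, and WO was the most spread group. *Angptl4* rose by 0.94 from MY to MO (SE 0.16, interval 0.57 to 1.31, FDR = 0.0041) and by 0.70 from WO to MO (SE 0.20, interval 0.26 to 1.13, FDR = 0.0235). The ratios of FPKM at the group means were 2.85 and 2.08, and with 0.1 added to FPKM the differences were 1.41 and 1.04. The difference from WO to MO was 0.62 in batch 1 and 0.81 in batch 2. Leaving out MO1, MO2, WO2, WO4 or WO5 ended this call, and the difference was 0.58, 0.68, 0.63, 0.57 and 0.69, with FDR = 0.0447, 0.0503, 0.0562, 0.0504 and 0.0511. It also ended in batch 1 only (FDR = 0.137) and with treat (FDR = 0.34). Without MO5 *Angptl4* was higher by 0.93 (FDR = 0.0102) and 0.69 (FDR = 0.0474). The age effects differed by 0.84 (interval 0.23 to 1.45, FDR = 0.0544), which missed the threshold, as it did without MO5 (0.83, FDR = 0.0756), and passed both without MO4, WO1 or WO3 (0.92, 0.96 and 0.92). With the same difference it passed with the replicate number as a block (FDR = 0.021), batch as a term (FDR = 0.0358) and a mean of at least 1 (FDR = 0.0421).

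Of the 8 lipid-sensing genes listed with *Angptl4*, 2 were called in MY vs. MO and in WO vs. MO, both higher, where 4.9% and 4.6% of all genes were called. The median differences of the 8 were 0.30 and 0.30. *Lpl*, the lipoprotein lipase that *Angptl4* inhibits, was at 2.21, 1.96 and 2.10 in MY mice, 1.87, 1.83, 1.79, 1.60 and 1.32 in WO mice, and 3.76, 4.40, 4.79, 3.91 and 3.90 in MO mice. No MO mouse overlapped with another group, and *Lpl* rose by 2.06 (FDR = 0.000566) and 2.47 (FDR = 2.16e-05). *Plin2*, which coats lipid droplets, rose by 1.04 (FDR = 0.0015) and 1.09 (FDR = 6.43e-05).

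**Figure D2:**
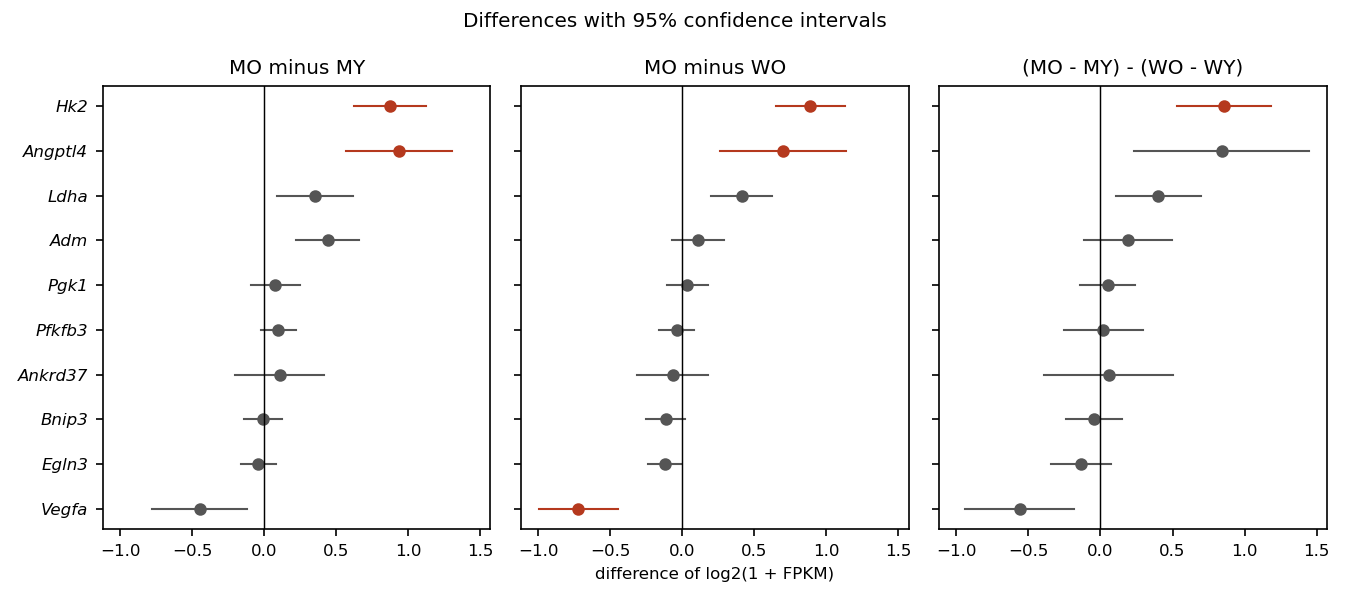
Differences of log2(1 + FPKM) for the 10 genes, as MO minus MY, MO minus WO and the difference of the age effects, with limma estimates as points, 95% confidence intervals as lines and called genes in red. *Hk2* is red in all 3 panels, at 0.87, 0.89 and 0.86.

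None of the 9 HIF subunits and oxygen sensors was called in MY vs. MO or in WO vs. MO (limma). Unadjusted p was under 0.05 for 2 and 4 of them, against 36.7% and 38.5% of all genes. *Hif1a*, an alpha subunit, was higher in MO than in WO by 0.34 (interval 0.17 to 0.51, FDR = 0.0074, and 0.013 without MO5, but 0.119 in batch 1 only), at 0.34 in each batch, and differed from MY by 0.13 (interval -0.05 to 0.30). *Epas1*, the alpha subunit best known from vessel cells, fell by 0.19 from WO to MO (FDR = 0.036) and differed by 0.05 from MY to MO. Its FDR in WO vs. MO was above 0.05 in each fit without MO2, MO3, MO4, MO5, WO1, WO2 or WO5, and 0.0749 without MO5. It was 0.199 in batch 1 only and 0.0551 with 0.1 added to FPKM. *Vhl*, *Egln1* and *Egln2* differed by -0.09, -0.10 and 0.10 in MY vs. MO and by 0.04, -0.11 and 0.04 in WO vs. MO, all with an FDR above 0.05. In WO vs. MO *Egln1* passed the FDR with quantile normalization (-0.10, FDR = 0.0455) and without MO4 (-0.13, FDR = 0.0189). *Hif1an*, an asparagine hydroxylase that blocks the activity of the alpha subunit, was named after its values were seen. It was at 3.77, 3.71 and 3.76 in MY mice, 3.79, 3.68, 3.84, 3.82 and 3.79 in WO mice, and 3.46, 3.44, 3.44, 3.48 and 3.52 in MO mice. The MO mice were below all mice of MY and WO, and *Hif1an* fell by 0.28 (FDR = 0.0013) and by 0.32 (FDR = 0.000158), or by 0.30 (FDR = 0.0021) and 0.33 (FDR = 0.000389) without MO5. These are changes of under 1.5-fold in RNA, and protein was not measured.

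Of 29 other HIF targets 28 were found. In MY vs. MO 3 were called, all higher, and in WO vs. MO 3, all higher, where 4.9% and 4.6% of all genes were called. The median differences of the list were 0.11 and 0.07, beside 0.0047 and 0.00035 over all genes. *Hmox1*, which degrades heme, rose by 1.40 (FDR = 0.0012) and 1.43 (FDR = 4.66e-05). *Cxcr4*, a chemokine receptor, rose by 1.21 (FDR = 0.0103) and 1.33 (FDR = 0.0016), the latter by 1.82 within batch 1 and 0.59 within batch 2. *Lox*, which cross-links collagen, rose by 0.71 (FDR = 0.0079) and 0.72 (FDR = 0.000844), the latter by 0.90 within batch 1 and 0.45 within batch 2. With 0.1 added to FPKM in place of 1 the differences of *Lox*, the weakest of these genes, were 2.07 and 2.12. In each of the 3 genes the MO mice did not overlap with the MY or the WO mice. With treat the calls in MY vs. MO ended for *Cxcr4* (FDR = 0.0656) and *Lox* (FDR = 0.12). Without MO5 the differences from WO to MO were 1.41, 1.505 and 0.78 for *Hmox1*, *Cxcr4* and *Lox*. They were 0.82 for *Hk3*, 0.78 for *Slc16a3*, 1.09 for *Slc2a4*, 2.53 for *Lpl* and 1.11 for *Plin2*, and all 8 genes were still called. From MY to MO without MO5 they were 1.39, 1.39 and 0.77 for *Hmox1*, *Cxcr4* and *Lox*, 0.81 for *Hk3*, 0.76 for *Slc16a3*, 0.78 for *Slc2a4*, 2.13 for *Lpl* and 1.07 for *Plin2*, all called. *Bnip3l*, a relative of *Bnip3*, differed by -0.04 (interval -0.22 to 0.14) and 0.03 (interval -0.12 to 0.18).

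**Figure D3:**
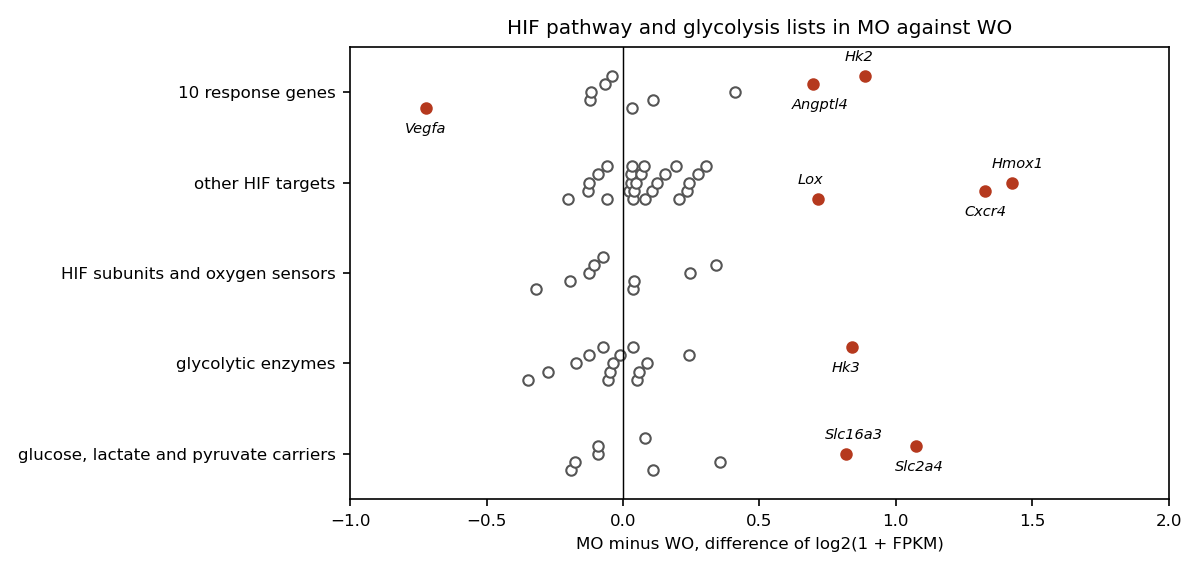
Difference of log2(1 + FPKM) between MO and WO for the genes of 5 lists, 1 point per gene, with called genes in red and named and the others as open points. *Vegfa*, at -0.72, is the called gene below 0.

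Markers of several cell types differed in MO. All 5 microglia markers were found, with *Cx3cr1* the most abundant on average, although *Cd68* was above it in every MO mouse. The summed level of the 5 markers was 10.8, 11.2 and 10.3 in WY mice, 10.5, 10.97 and 10.5 in MY mice, 10.7, 10.9, 10.8, 8.80 and 8.69 in WO mice, and 18.6, 20.7, 23.1, 18.6 and 19.2 in MO mice. All MO mice were above all others, and *Itgax* was at or below 0 in WO4 and WO5. All 5 were called as higher in both comparisons, where 4.9% and 4.6% of all genes were called, with median differences of 1.497 and 1.68. All 60 astrocyte markers were found, led on average by *Aldoc*, itself an enzyme of glycolysis. Their summed level was 256 to 265 in MO and 241 to 249 in the other mice. At the FDR alone 26 of them rose and 3 fell in MY vs. MO, and 29 rose and 7 fell in WO vs. MO. Median differences were 0.21 and 0.25. Of all 18167 genes 2377 rose and 2269 fell in MY vs. MO, and 2730 rose and 2345 fell in WO vs. MO. All 35 oligodendrocyte markers were found, led on average by *Mbp*, and their sums were 175 to 196 in MO, 189 to 196 in WO, 203 to 204 in MY and 205 to 207 in WY. Of these, 13 were called as lower in MY vs. MO and 3 in WO vs. MO, with median differences of -0.45 and -0.27, and 7 were called as lower in WY vs. WO. Of all 18167 genes 143, 94 and 37 were called as lower in these comparisons. The neuron list, taken as mouse orthologues of the study's markers, holds 71 genes where the study counts 72. All 71 were found, led by *Snap25* and including *Lpl*, with sums of 305 to 309 in MO and 304 to 315 in the other mice. At the FDR alone 37 fell and 5 rose in MY vs. MO, and 31 fell and 7 rose in WO vs. MO, with medians of -0.18 and -0.14, while 2269 and 2345 of all 18167 genes fell. In each comparison 2 were called as higher and 2 as lower. All 5 motor neuron markers were found, led by *Chat*, with sums of 7.57 to 8.67 in MO, 9.66 to 10.4 in WO, 9.24 to 9.29 in MY and 8.42 to 9.65 in WY. At the FDR alone 3 of them fell and 0 rose in each comparison, with medians of -0.25 and -0.42. The part of any of these cells in the lower *Vegfa* and in the rise of *Hk2*, *Angptl4* and the other genes was not tested.

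The promoters were read from RefSeq for GRCm38.p6, as 250 bases before to 50 after each start, to show the HIF core motif in genes that moved in opposite directions. Of the 10 genes 9 matched by symbol, with 12 promoters, and *Angptl4* did not. The motif was ACGTG, or CACGT on the other strand, and a run of CACGTG holds both in overlap. It was found in 9 of the 12 promoters and in 8 of the 9 genes, all but *Adm*. It was held by 19.6% of all 32851 promoters in the table and by 26.6% of the 13509 genes of the expression table with a promoter. It occurred at 2 places for *Hk2*, 3 for the upstream start of *Ldha*, 2 for *Pgk1* and *Ankrd37*, and 1 for *Bnip3*, *Egln3*, the downstream start of *Vegfa* and each start of *Pfkfb3*. A match is a description, not a site or a cause. Promoters of *Hk2*, *Ldha* and *Vegfa*, which passed the FDR in WO vs. MO, are shown 5′ to 3′ on the strand of the gene, with the motif in capitals, for *Hk2* at chr6:82774405-82774704 (minus), *Ldha* at chr7:46845554-46845853 (plus), and *Vegfa* at chr17:46032328-46032627 and, downstream, chr17:46025114-46025413 (both minus). The downstream start of *Ldha*, chr7:46846832-46847131, holds no motif and is not shown.
*Hk2*: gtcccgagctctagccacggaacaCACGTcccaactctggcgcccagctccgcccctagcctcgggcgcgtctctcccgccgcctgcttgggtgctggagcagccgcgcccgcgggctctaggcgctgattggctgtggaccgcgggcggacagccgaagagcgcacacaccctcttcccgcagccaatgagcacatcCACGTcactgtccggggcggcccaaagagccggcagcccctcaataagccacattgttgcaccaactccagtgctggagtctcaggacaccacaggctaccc
*Ldha*: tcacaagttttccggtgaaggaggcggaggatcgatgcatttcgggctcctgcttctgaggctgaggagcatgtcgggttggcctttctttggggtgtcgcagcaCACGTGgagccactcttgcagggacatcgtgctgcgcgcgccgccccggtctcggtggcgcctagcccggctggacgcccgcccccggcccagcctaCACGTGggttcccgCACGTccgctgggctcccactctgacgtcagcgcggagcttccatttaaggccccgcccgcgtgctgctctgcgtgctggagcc
*Vegfa*: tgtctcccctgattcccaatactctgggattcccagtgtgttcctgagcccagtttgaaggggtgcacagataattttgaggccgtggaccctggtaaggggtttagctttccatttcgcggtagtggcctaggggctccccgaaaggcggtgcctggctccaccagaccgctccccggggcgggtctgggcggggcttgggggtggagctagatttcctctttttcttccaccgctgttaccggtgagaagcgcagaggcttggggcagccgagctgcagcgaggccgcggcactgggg
*Vegfa*, downstream: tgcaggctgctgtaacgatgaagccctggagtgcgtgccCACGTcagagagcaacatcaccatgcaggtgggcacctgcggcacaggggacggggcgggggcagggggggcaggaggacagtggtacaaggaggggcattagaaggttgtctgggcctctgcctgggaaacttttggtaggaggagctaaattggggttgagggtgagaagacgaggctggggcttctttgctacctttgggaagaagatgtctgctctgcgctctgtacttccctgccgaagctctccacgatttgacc
The upstream *Vegfa* sequence has no capitals, since neither run of letters is in that window.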

How the data were processed

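RNA of 16 mouse spinal cords was sequenced by the authors from stranded mRNA libraries, 1 per mouse. The log2 values were deposited as 1 table and used as they stand. Per the study's methods, the authors trimmed with Trimmomatic, mapped to mm10 by TopHat, computed FPKM with Cufflinks, took log2 after adding 1, left out genes at 0 in 8 or more mice and adjusted for the 2 batches with ComBat. Tool versions and the covariates of ComBat are not given in the sources used here. After adjustment 915 values were below 0, none of them in the 10 genes. Depth behind a gene is unknown.

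Each comparison was fitted on its 2 groups with limma 3.58.1 (lmFit and eBayes, two-sided) in R 4.3.3, over 18167 genes, and the difference of the age effects on all 16 mice. Intervals are 95% limma intervals for 1 gene, without adjustment. The fits were tested on simulated data with independent noise, in which the changes put in were larger than any seen in the 10 genes. Recovery of smaller changes was not tested. Positions came from GENCODE M21 (GRCm38), promoters from RefSeq. Python 3.11.15, pandas 2.3.3, NumPy 2.4.6 and matplotlib 3.10.9 were used.

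The genes and the lists were chosen with earlier results of these data known. From each list the called genes were named, at most 4 per list and comparison, with *Hif1a*, *Epas1*, *Vhl*, *Egln1*, *Egln2*, *Ldhb*, *Hk1*, *Bnip3l*, *Slc2a1*, *Flt1*, *Kdr* and *Calcrl* whatever their values. *Hif1an* and *Nrp1* were added after their values were seen. Of the other HIF targets 1 gene is not reported here and was taken out of the list and its counts. Of 23 family relatives of the 10 genes 20 were found, and 1 was called in MY vs. MO and in WO vs. MO (*Hk3*), where 4.9% and 4.6% of all genes were called. Alternatives were batch 1 only, batch as a term, genes with a mean of at least 1, quantile normalization, 1 fit of the 4 groups, a prior with an intensity trend, treat of limma at 1.2-fold, the FDR alone, 0.1 added to FPKM, a block for the replicate number, and leaving out each mouse. Marker lists were also summarised by their median.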

Additional observations from a re-analysis of the deposited data

Results flagged for a closer look

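The age effect, old minus young, differed between the genotypes by an interaction test with an FDR at or below 0.05 for 13 of the 32 genes tested, against 17.7% of all genes. The 32 are the 10 response genes and 22 named genes of the other lists, without marker lists. Of the 13, 8 were named because they were called in comparisons that share the MO mice, and *Hif1an* and *Nrp1* after their values were seen, so the count follows from the choice of genes. Of the 10 response genes these were *Hk2*, by 0.86 (FDR = 0.0015), and *Vegfa*, by -0.56 (FDR = 0.041). Among the others it was larger in mutant mice by 2.51 for *Lpl*, 1.58 for *Hmox1*, 1.34 for *Cxcr4*, 1.15 for *Slc2a4*, 1.14 for *Plin2*, 0.89 for *Slc16a3*, 0.84 for *Hk3*, 0.73 for *Lox* and 0.48 for *Nrp1*. It was lower in mutant mice for *Kdr*, at -0.56, and for *Hif1an*, at -0.44.

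In 12 of 94 groups of WO or MO mice, over 47 genes and list means, 1 mouse lay far from the other 4 by Dixon's test, which chance alone does in about 1 of 20 groups. The 12 are not separate events, so their number cannot be set against that rate. Several come from the sex-specific genes of MO5, and list means are counted beside genes of the same list. None of the 12 was in the 10 response genes. In MO5 *Xist* was at 3.21, *Ddx3y* at 1.95, *Eif2s3y* at 1.82 and *Uty* at 1.05. In WO4 *Mbp* was at 5.36, the mean of the spinal cord markers at 5.34, *Cldn5* at 3.94 and the mean of the endothelial markers at 2.60. In MO1 *Hba-a1* was at 3.60 and the mean of the blood markers at 1.07. *Flt1* was at 2.97 in MO3 and *Egln2* at 5.35 in WO1.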

How the results depend on the processing

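Of 1506 alternative values for 79 fold changes of named genes, 1441 kept their direction and their call by both thresholds together. Some of these crossed the FDR threshold alone. A further 15 no longer passed both thresholds, 27 passed both newly and 23 changed sign. In MY vs. MO the fits with batch 1 only, batch as a term and the block give the same difference, so they are not separate checks. *Hk2* passed in every alternative in MY vs. MO (0.75 to 1.38), WO vs. MO (0.79 to 1.43) and the age effect (0.74 to 1.37), and *Vegfa* in every one in WO vs. MO (-0.79 to -0.62). *Angptl4* failed in 7 of 19 in WO vs. MO, including batch 1 only and treat. With treat the age effect was no longer called for *Cxcr4* (FDR = 0.062), *Lox* (FDR = 0.106) and *Slc16a3* (FDR = 0.0708).

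Genes called went from 890 to 4646 in MY vs. MO, 836 to 5075 in WO vs. MO, 46 to 204 in WY vs. WO and 1020 to 3210 for the age effect with the FDR alone. With 0.1 added to FPKM they were 1483, 1529 and, for the age effect, 1548. Treat gave 3 in WY vs. WO and 608 for the age effect. In WY vs. WO there were 73 with batch 1 only, 80 with batch as a term, and 7 (without WY3) to 64 (without WO4) with a mouse left out. In WY vs. MY the count of 1 became 2 with a mean of at least 1 or an intensity trend, 4 in 1 fit of all groups, and 1 to 5 with a mouse left out. Of the 10 genes, 2 in place of 1 were called for the age effect with batch as a term, a mean of at least 1, the FDR alone or the block, and 1 to 3 with a mouse left out. Why these counts moved was not tested. Quantile normalization lowered the share of higher genes among those called for the age effect from 82.8% to 72.1%, and treat raised it to 92.6%. With the FDR alone it was 59.3%, and it went from 83.9% to 51.2% in MY vs. MO and from 88.8% to 53.8% in WO vs. MO.

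Values that changed sign were small. *Pgk1* was at -0.0159 and -0.0138 with quantile normalization, -0.0122 in batch 1 (WO vs. MO), and -0.0039 to 0.0793 with a mouse left out. Such ranges were -0.0383 to 0.0261 for *Bnip3*, -0.0291 to 0.1846 (MY vs. MO) and -0.1274 to 0.0041 (WO vs. MO) for *Ankrd37*, -0.0422 to 0.0075 for *Ldhb*, -0.0184 to 0.0448 for *Hk1*, -0.0856 to 0.0127 and -0.0123 to 0.086 for *Bnip3l*, and -0.007 to 0.0828 for *Vhl*. *Ldhb* was at 0.0042 in batch 1, with batch as a term and with the block, *Hk1* at -0.0099 with quantile normalization and 0.0348 in batch 1, *Vhl* at -0.0023 and *Bnip3l* at -0.0482 in batch 1.

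The labels give mice of different groups the same numbers without saying what they share. Deviations of same-numbered mice from their group means correlated at 0.177, 0.0853 and 0.151 in MY and MO, -0.207 to 0.0913 in WO and MO, 0.377, -0.129 and 0.189 in WY and WO, and -0.2 to -0.0194 in WY and MY. In each comparison at least 1 pair was under 0.1, so the numbers were not taken to pair the mice. With the number as a block 1108 genes were called from MY to MO, 840 from WO to MO, 63 from WY to WO, 1 from WY to MY and 1008 for the age effect. Batch as a term could not be fitted for WY vs. MY, where all mice are of batch 1, and the age effect already used all 4 groups.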
